A study of Xenopus tropicalis with 13 samples.

Results

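The genes foxi1, tp63, dlx3 and agr2 mark or specify the surface ectoderm of the frog embryo, which forms the epidermis, its ion-transporting cells and the mucus-secreting cement gland. They are 4 of the 2333 genes that the authors' deposited tables listed as changed after depletion of Taf15, an RNA-binding protein. They were chosen from the results of that contrast, by the fold changes and adjusted p-values of stage 10, so their change is described here and not tested anew. The samples were single, whole Xenopus tropicalis embryos. At stage 10, when gastrulation begins, 3 were uninjected and 3 were MO-injected, and at stage 15, a neurula stage, 4 were uninjected and 3 MO-injected. MO stands for a morpholino, an antisense oligonucleotide that blocks translation or splicing. The labels of the 13 embryos give MO injection without naming the morpholino, and the comparison groups received no injection at all, so effects of injection and of Taf15 depletion cannot be told apart. No genotype, strain or further agent is given in the labels. The labels of 1 uninjected embryo disagree (a stage 15 title and stage field, a stage 10 description), and it is taken as stage 15.

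In the early frog embryo, BMP signalling on the ventral side directs ectoderm towards epidermis, and its antagonists on the dorsal side leave ectoderm free to become neural. The transcription factors foxi1, dlx3 and tp63 act within the non-neural ectoderm. The epidermis then gains scattered cell types, among them ionocytes, multiciliated cells, goblet cells and small secretory cells, and the cement gland arises at the anterior end. Differentiated ionocytes and the cement gland appear only after gastrulation.

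All 4 genes were present in the authors' deposited gene table of stage 10, where foxi1, dlx3 and tp63 were lower and agr2 was higher in MO-injected embryos. The gene headers name no direction, so lower and higher are inferred throughout from a correlation with raw bin counts, described under data processing. None of them was in the stage 15 gene table or in the bin tables of either stage. At stage 10 the authors' table called 2.19% of 13317 tested genes at an adjusted p under 0.1 (0.954% as higher and 1.24% as lower), and since the rule used this contrast, nothing is read from the presence of the 4 genes. The table gives no value per embryo for a gene. It gives a mean normalised count (reads scaled for library depth and averaged over all embryos of both stages), a log2 fold change and the standard error (SE) of it, and an adjusted p. The level of each gene in each group, and the overlap of the groups, were therefore not available. In RNA from whole embryos, fewer cells of a type and less RNA per cell cannot be told apart.

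The forkhead transcription factor foxi1, which RefSeq also names FoxI1e and Xema, is a regulator of non-neural ectoderm and of ionocytes. In the authors' deposited table, the foxi1 log2 fold change was -2.74 (SE 0.561, 95% interval -3.84 to -1.64, adjusted p = 0.000358). On a linear scale foxi1 was 6.68-fold lower, with an interval of 3.12-fold to 14.3-fold. It had rank 5 by size among the 165 lower genes, and rank 39 by p among all 292 listed genes. The mean normalised count of foxi1 was 647.

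The homeobox gene dlx3 is expressed in non-neural ectoderm, where BMP signalling activates it, and its domain later includes placodal ectoderm. Its log2 fold change in the authors' deposited table was -1.98 (SE 0.451, 95% interval -2.86 to -1.09, adjusted p = 0.00227). This was 3.94-fold lower, with an interval of 2.13-fold to 7.27-fold. Among the 165 lower genes dlx3 had rank 13 by size, and its mean normalised count was 694. The related gene dlx4, which lies next to dlx3 in the RefSeq annotation, was in none of the 4 tables.

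The transcription factor tp63, a relative of p53, maintains the basal progenitor cells of stratified epithelia. It showed the smallest change of the 4 genes. The authors' deposited table gave tp63 a log2 fold change of -1.01 (SE 0.327, 95% interval -1.66 to -0.37, adjusted p = 0.0928). This was 2.02-fold lower, with an interval of 1.30-fold to 3.15-fold. Its adjusted p lay just inside the limit of 0.1, at rank 278 of 292 by p, and tp63 would not be called at a limit of 0.05. By size it had rank 78 among the 165 lower genes. Its mean normalised count was 1755.

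The secreted and endoplasmic reticulum protein encoded by agr2 belongs to the protein disulfide isomerase family. In Xenopus it is best known as a marker of the cement gland, and in mouse it is needed for mucin production in the gut. It moved the other way from the 3 transcription factors. In the authors' deposited table, agr2 had a log2 fold change of 2.07 (SE 0.460, 95% interval 1.17 to 2.97, adjusted p = 0.00141). This was 4.19-fold higher, with an interval of 2.25-fold to 7.83-fold. It had rank 12 by size among the 127 higher genes, and its mean normalised count was 2211, which is an average over both stages and does not give its level at stage 10. The gene agr3 lies next to agr2 in the RefSeq annotation, where the name agr2 is also listed as a synonym of agr3. How reads were counted is not described, so reads shared by the 2 neighbours may have been assigned to either one.

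**Figure D1:**
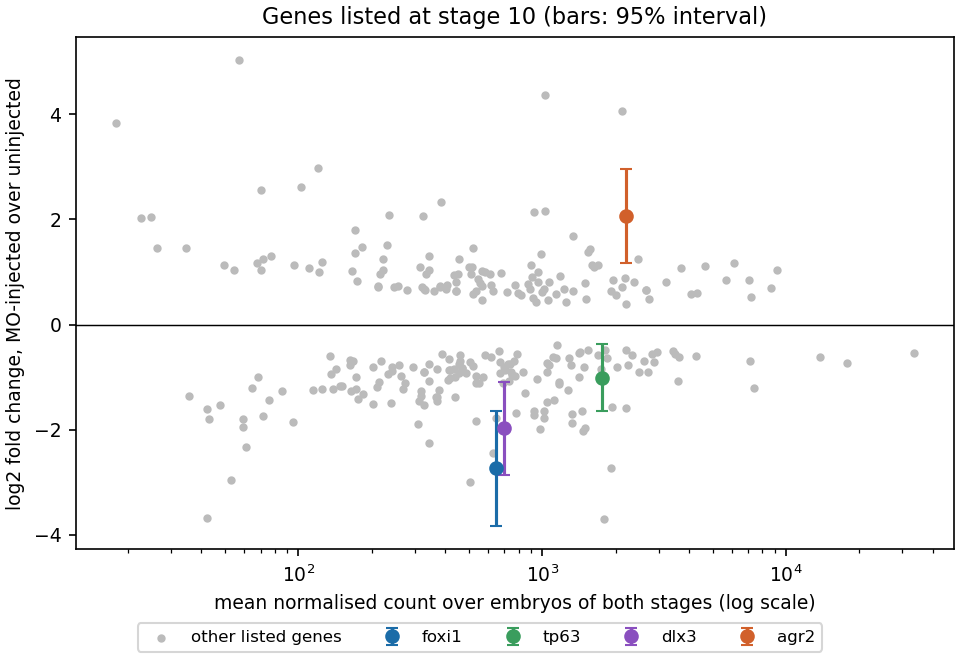
Log2 fold change of MO-injected over uninjected embryos (y axis) against the mean normalised count over embryos of both stages (x axis, log scale) for the 292 genes listed at stage 10. Grey points are the other listed genes, and coloured points with 95% intervals are the 4 named genes: foxi1, dlx3 and tp63 sit below 0, and agr2 sits above 0.

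The 3 lower genes were set side by side. The interval of foxi1 ended at -1.64 and that of tp63 began at -1.66 on the log2 scale, so they overlapped narrowly, and the interval of dlx3 overlapped both. The order foxi1, dlx3, tp63 by size is thus an order of estimates whose neighbours do not separate beyond their intervals. Overlap of 2 intervals does not show that the changes are equal, and no difference between the genes was tested. The interval of agr2 lay wholly above 0, which listing at this limit requires of any higher gene, so it could not overlap the other 3.

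The estimates of these genes had larger SEs than those of most listed genes with a like mean normalised count. That mean is taken over both stages, so the genes compared may differ in their reads at stage 10. Listing at stage 10 required a log2 fold change at least 3.06 times its SE in size. Genes of small change could therefore be listed only with a small SE, and 157 of the genes listed at stage 10 were under 2-fold. The counts below follow in part from this rule, so they describe listed genes and do not show lower precision than in unlisted genes. Among the 132 other genes listed at stage 10 whose mean normalised count was within 2-fold of that of foxi1, the median SE was 0.229, and 130 had a smaller SE than the 0.561 of foxi1. For dlx3, 120 of 126 such genes had a smaller SE than its 0.451. For agr2, 66 of 71 such genes had a smaller SE than its 0.460, with a median of 0.193. For tp63, 69 of 91 such genes had a smaller SE than its 0.327, with a median of 0.209. An SE in this model grows with the spread between embryos and also as the reads in a group become few, and the tables do not separate these.

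**Figure D2:**
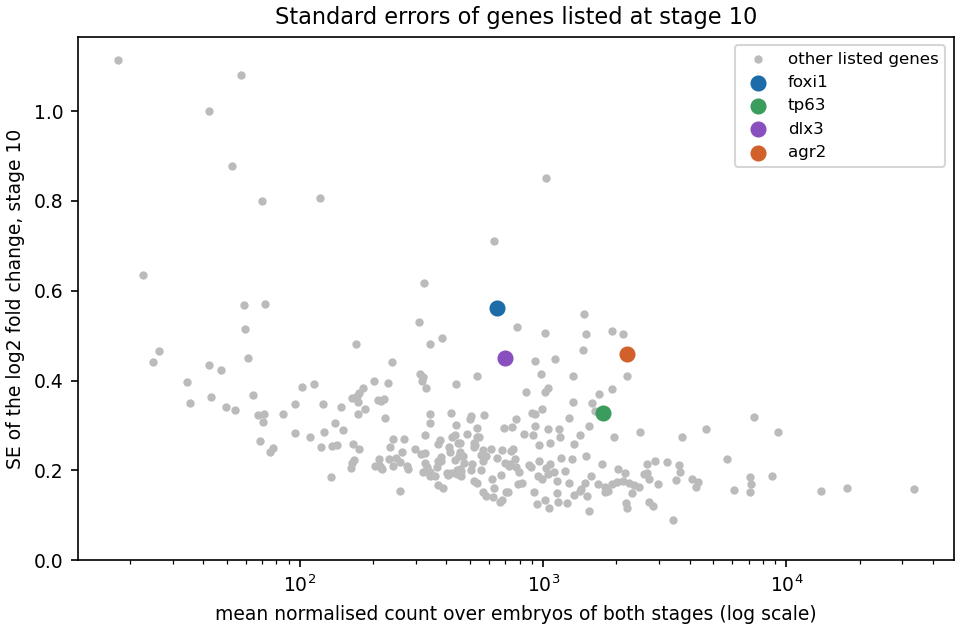
Standard error of the stage 10 log2 fold change (y axis) against the mean normalised count over embryos of both stages (x axis, log scale) for the 292 listed genes. Grey points are the other listed genes; foxi1 (0.561), agr2 (0.460) and dlx3 (0.451) sit near the upper edge of the points around them, and tp63 (0.327) sits lower.

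Likeness of pattern could be measured over 1 contrast only, as the distance to other listed genes with a RefSeq symbol in log2 fold change and log2 mean normalised count. Among the genes nearest to foxi1 in the authors' deposited table were alpl (log2 fold change -3.0, distance 0.445) and dlx3 (distance 0.771). Among those nearest to dlx3 were st3gal1 (-1.69, distance 0.330) and psmb7 (-1.72, distance 0.490) in the authors' deposited table. Nearest to tp63 in the authors' deposited table were ubr4 (-0.84, distance 0.172), scaf8 (-0.80, distance 0.296) and elavl3 (-1.0, distance 0.310). No listed gene lay as close to agr2, whose nearest were degs1 (1.43, distance 0.800), slc25a28 (1.68, distance 0.823) and itga5 (1.24, distance 0.843) in the authors' deposited table. Of the 24 genes that flank the 4 genes in the RefSeq annotation, 3 on each side, none was in any of the 4 tables. Over all tested genes, 2.19% were listed at stage 10 and at most about 13.2% at stage 15. How many of the 24 were tested, or carry the same name in the authors' tables, is not known, so nothing is read from their absence.

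At stage 15 the authors' table called 2094 genes, at most about 13.2% of those tested (5.96% as higher and 7.26% as lower), and held none of the 4 genes under its symbol or a RefSeq synonym. That table holds no gene under 2-fold. Suppose it holds every tested gene past both limits. An unlisted gene then was changed by less than 2-fold, had a log2 fold change below 2.21 times its SE in size, or was not tested. A foxi1 change as large as at stage 10 would then be missing only with an SE above 1.24. None of the 334 genes listed at stage 15 within 2-fold of the mean normalised count of foxi1 had so large an SE. The same limit was an SE of 0.896 for dlx3, which 2 of 330 such genes exceeded, and an SE of 0.937 for agr2, which none of 138 exceeded. For tp63, whose stage 10 change was close to 2-fold, the limit was an SE of 0.460, which 10 of 171 such genes exceeded. Listed genes were themselves selected for a change that is large against its SE, so these counts describe them and not unlisted genes. Whether the change of any of the 4 genes differed between the stages was not tested, since the stage 15 values are not in the table.

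Other genes of the surface ectoderm were then read from 6 lists covering epidermal regulators, keratins and epidermal structure, ionocytes, goblet and small secretory cells, multiciliated cells, and the cement and hatching glands. The lists held 154 genes, of which 134 had a name found in RefSeq or the tables. At stage 10, 6 of these 134 were listed (4.48%), 4 of them the genes described above. Without those, 2 of 130 were listed (1.54%), beside 2.19% of all tested genes. The 4 removed genes were chosen because they were listed, and the 6 lists were chosen with earlier results of these data known. Nothing is therefore read from either share. How many of the list genes were tested is not given.

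Both of these other genes bear on the epidermis. The plakin gene ppl, which encodes periplakin, a linker of keratin filaments to the cell membrane, was lower in the authors' deposited table. Its log2 fold change there was -2.73 (SE 0.511, adjusted p = 5.05e-05), close in size to that of foxi1. The zinc-finger gene gata2, an early regulator of ventral ectoderm and mesoderm, went the other way from foxi1, dlx3 and tp63 in the authors' deposited table, at 0.60 (SE 0.175, adjusted p = 0.0403) on the log2 scale. Of the 24 epidermal regulators, dlx3, tp63 and gata2 were thus listed, 2 lower and 1 higher. Over all tested genes, 2.19% were listed at stage 10 (1.24% as lower and 0.954% as higher). Because dlx3 and tp63 were chosen from the results of this contrast, nothing is read from the count of regulators. The other ionocyte genes, among them the subunits of the proton pump that ionocytes use, were not listed at stage 10, nor was any other gene of the cement gland or goblet cell lists besides agr2. No multiciliated cell gene was listed at that stage.

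At stage 15, 12 of the 134 genes of the 6 lists were listed (8.96%), 4 higher and 8 lower, against at most about 13.2% of all tested genes. The median log2 fold change of the 12 was -1.33, beside -1.07 over the whole table. No gene under 2-fold is in that table, so each median depends largely on how many genes lie on each side (8 of 12 and 1150 of 2094 lower). It is therefore not read as the size of a typical change. The share called over all tested genes is an upper bound and the number of list genes tested is not given, so the 2 shares are set side by side only, and single genes are given as descriptions. In the authors' deposited table of stage 15, the ionocyte gene atp6v1b1, which encodes a proton pump subunit, had a log2 fold change of -1.99 with an SE of 0.530 (adjusted p = 0.00190). The chloride channel gene cftr was at -1.68 with an SE of 0.636 (adjusted p = 0.0407) in the same authors' deposited table. With mean normalised counts of 103 for atp6v1b1 and 25.4 for cftr, both lay far below foxi1 (647). They were the 2 listed members of the 26 ionocyte genes with a name found, both lower (7.69%, beside at most about 7.26% of all tested genes called lower). No link between them and foxi1 was tested. Neither was listed at stage 10, where foxi1 was the listed gene of that list.

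The lectin gene itln1, a product of the goblet cells of the tadpole skin, was lower at stage 15 in the authors' deposited table, at -1.22 (SE 0.440, adjusted p = 0.0292) on the log2 scale. The prostaglandin synthase gene ptgs1 of the same list stood in the authors' deposited table at -2.04 (SE 0.374, adjusted p = 1.69e-06). The secretory cell list thus had agr2 higher at stage 10 and these 2 other genes lower at stage 15. The 2 lower genes were from 13 named genes (15.4%, beside at most about 7.26% of all tested genes called lower), and the list was not tested. Of the structural list, the transglutaminase gene tgm1, a cross-linker of the epidermal envelope in mammals, stood in the authors' deposited table at -1.68 (SE 0.457, adjusted p = 0.00252). The epidermal regulator klf4 was higher in the authors' deposited table, at 1.67 with an SE of 0.562 (adjusted p = 0.0187). The mean normalised counts of tgm1 and klf4 were low, at 43.8 and 53.0. From the gland list, the authors' deposited table of stage 15 held the Otx-family homeobox gene crx at 1.5 (SE 0.206, adjusted p = 3.35e-11) and pnhd at 1.37 (SE 0.254, adjusted p = 2.27e-06), both higher, but not agr2. They were 2 of 15 named genes (13.3%, beside at most about 5.96% of all tested genes called higher). Whether pnhd marks these glands was not examined, so its value is not read as a change of the glands.

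The multiciliated cell list had 4 of 30 named genes listed at stage 15 (13.3%), beside at most about 13.2% of all tested genes, with spag17 (log2 fold change -6.17, SE 0.648), myb (-1.39, SE 0.292) and tekt1 (-1.28, SE 0.481) lower and gmnc (2.04, SE 0.707) higher in the authors' deposited table. The genes spag17 and tekt1 encode parts of the ciliary axoneme, and gmnc and myb act in the programme that forms multiciliated cells. The mean normalised count of gmnc was low, at 37.2, and that of tekt1 was 89.5.

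**Figure D3:**
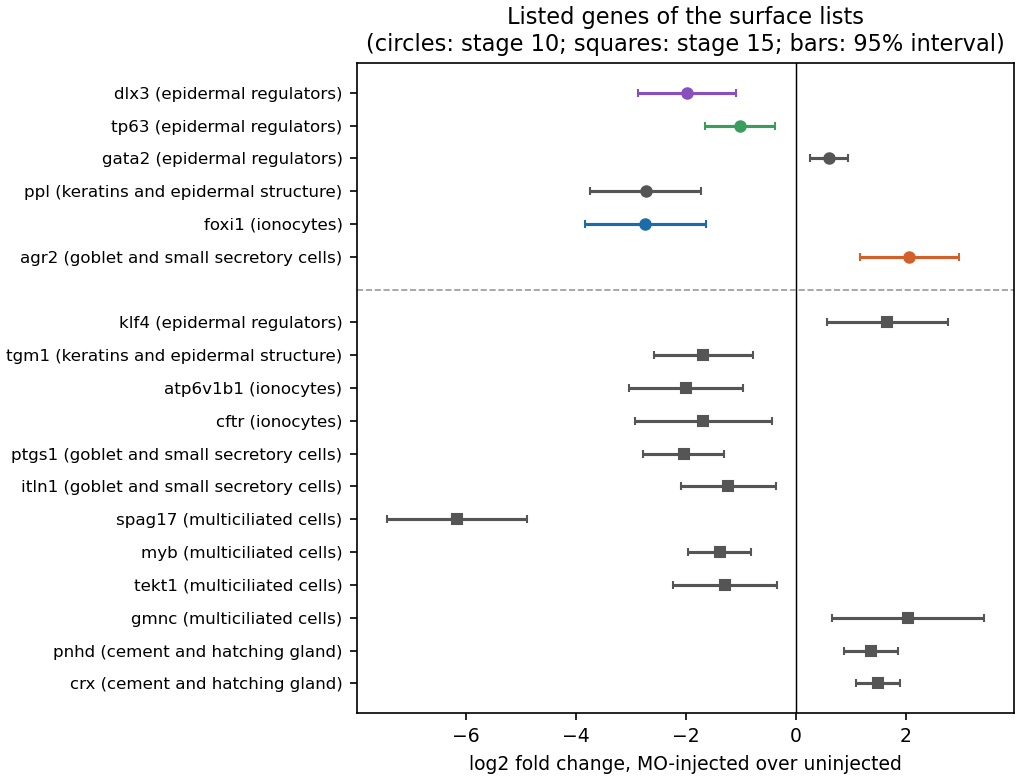
Log2 fold change of MO-injected over uninjected embryos (x axis) with 95% intervals for every listed gene of the 6 surface ectoderm lists, 6 genes at stage 10 (circles, above the dashed line) and 12 at stage 15 (squares). The 4 named genes are coloured; no gene appears at both stages.

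Placodal and neural genes gave further values beside the fall of foxi1, dlx3 and tp63. Besides foxi1 and dlx3, no gene of the placode and ectoderm border list was listed at stage 10. The authors' deposited table of stage 15 held 3 of its 16 named genes, all lower (18.8%, beside at most about 7.26% of all tested genes called lower). Among them were tfap2b (log2 fold change -2.13, SE 0.291) and tfap2e (-1.17, SE 0.373). Of 13 named genes on the neural plate list, 3 were in the authors' deposited table of stage 10, all lower (23.1%, beside 1.24% of all tested genes called lower, with no test of the list): myt1 (-1.98, SE 0.503), elavl3 (-1.0, SE 0.279) and sox21 (-0.82, SE 0.216). Lower at stage 15 in the authors' deposited table were sox21 (-1.25, SE 0.198) and tubb2b (-1.07, SE 0.324) of that list. Of 14 mesoderm and endoderm genes, the authors' deposited table of stage 10 held 1, mespa, which was higher (1.09, SE 0.237). That was 7.14%, beside 0.954% of all tested genes called higher. The authors' deposited table of stage 15 held 3, all higher: vegt (1.77, SE 0.155), mixer (2.14, SE 0.345) and t (1.05, SE 0.153). That was 21.4%, beside at most about 5.96% of all tested genes called higher. The placode, neural plate, and mesoderm and endoderm lists were chosen with earlier results of these data known, so nothing is read from their shares. The part of these other tissues in the values of foxi1, dlx3, tp63 and agr2 was not tested, and the tables hold no level of any marker per group.

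Of the BMP and Notch list, the authors' deposited table of stage 10 held only the Delta ligand gene dlc, which was lower (log2 fold change -1.59, SE 0.410, adjusted p = 0.0120). None of the BMP ligand, receptor or Smad genes on it was listed at the level of the gene at either stage. The authors' deposited table of stage 15 held 7 of its 29 named genes (24.1%, beside at most about 13.2% of all tested genes), of which 6 were higher (at most about 5.96% of all tested genes): the ventral homeobox genes ventx3.1 (2.23), ventx3.2 (2.07), ventx2.1 (1.52), ventx1.1 (1.42) and ventx1.2 (1.33), and the BMP antagonist gene chrd (1.05). The antagonist gene nog2 was lower (-1.99) in the authors' deposited table. This list was also chosen with earlier results of these data known and was not tested, so nothing is read from its shares.

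Bins are segments of a gene, and the authors' bin tables listed those whose share of the gene's reads was higher in MO-injected embryos. At stage 10 no bin of the 6 surface lists was listed. At stage 15, 8 bins in 7 of their genes were listed. Over all genes, at most about 0.141% and 0.747% of tested bins were listed at the 2 stages, and since the number of tested bins in the list genes is not given, the counts cannot be set against these shares. None belonged to foxi1, tp63, dlx3 or agr2. Read counts per embryo are available for these bins, and the column numbers do not match the embryo names in the labels. The bins were listed from these same raw counts, so a gap between the groups is not a separate result. Raw counts are also not scaled for library depth. No genome build is named for their coordinates.

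The bin of grhl1, a grainyhead transcription factor of the epidermis, spans 140 bases on the minus strand of scaffold 5 (26086592 to 26086731). It had 8, 13, 17 and 20 raw reads in uninjected and 38, 83 and 223 in MO-injected embryos. Of the MO-injected embryos, 1 had most of the reads. The log2 ratio of the mean counts was 2.94, and 2.02 without that embryo, while the deposited log2 usage change was 1.32 (adjusted p = 1.05e-06 in the authors' deposited table). The bin of slc4a1, an anion exchanger gene of the ionocyte list, spans 1398 bases on the plus strand of scaffold 10 (18128879 to 18130276). Its raw reads were 17, 6, 17 and 7 in uninjected and 19, 27 and 52 in MO-injected embryos, so the groups came within 2 reads of each other. The log2 ratio of its mean counts was 1.44, and 0.94 without the MO-injected embryo of 52 reads. The bin of pkp2, a plakophilin gene of cell junctions, spans 84 bases on the minus strand of scaffold 3 (142902 to 142985), with 1, 0, 5 and 6 raw reads in uninjected and 8, 21 and 24 in MO-injected embryos.

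**Figure D4:**
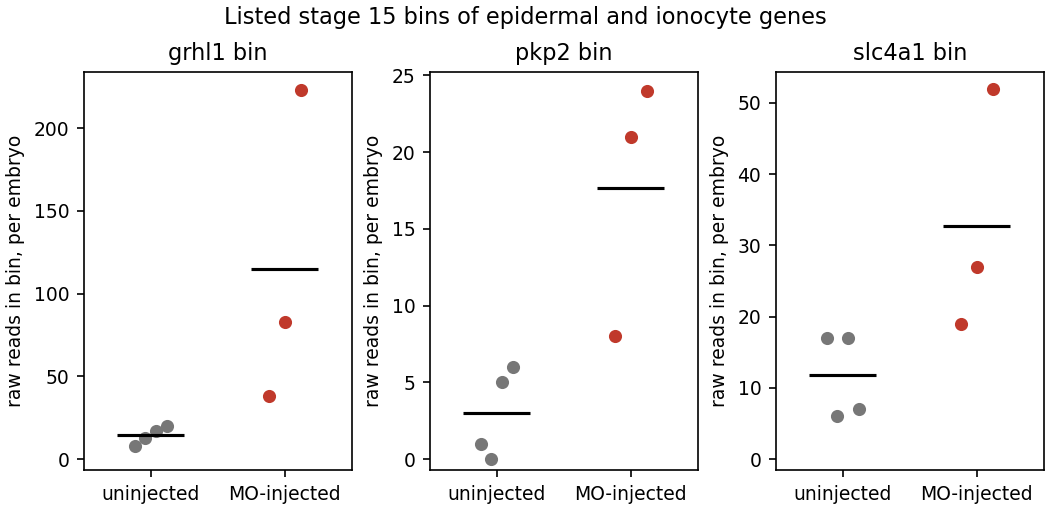
Raw reads per embryo (y axis, a separate scale in each panel) in the listed stage 15 bins of grhl1, pkp2 and slc4a1, for 4 uninjected and 3 MO-injected embryos. Points are embryos and bars are group means. The MO-injected embryos lie above the uninjected ones in each panel, by 2 reads for slc4a1 (19 against 17) and for pkp2 (8 against 6). The bins were listed from these same counts, which are not scaled for library depth.

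The other 5 bins belonged to multiciliated cell genes and were thinly covered. They were 2 bins of spag17 and 1 each of cep152, tp73 and tekt2. The log2 ratios of mean raw counts in the 2 spag17 bins were 1.05 and 1.32, whereas the gene-level log2 fold change of spag17 at stage 15 was -6.17. The spag17 bin of 264 bases had 6, 1, 0 and 1 raw reads in uninjected and 2, 4 and 8 in MO-injected embryos. The one of 11 bases had 1, 0, 0 and 1 against 1, 1 and 4, so the groups overlapped in both. These bins were selected for a higher share of the gene's reads. Their few raw reads thus did not fall with the deposited fold of the gene, and the reason was not tested. The cep152 bin had 2, 2, 4 and 3 raw reads in uninjected and 15, 12 and 11 in MO-injected embryos. The tekt2 bin had no read in uninjected embryos and 2, 1 and 15 in MO-injected embryos, so that 1 embryo held nearly all of them. Of the BMP and Notch list, a bin of jag1 and one of bmp7.1 were listed at both stages, a further bin of bmp7.1 at stage 15 and a bin of id3 at stage 10. The id3 bin, in a gene that BMP signalling activates, had 2, 7 and 2 raw reads in uninjected and 30, 20 and 20 in MO-injected embryos at stage 10.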

How the data were processed

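Polyadenylated RNA of single embryos was sequenced. Programs named in the submitters' processing notes are Bowtie, TopHat, Cuffdiff, Cufflinks, DESeq2 and DESeq, without versions or roles. Per the file headers, the authors deposited for each listed gene a mean normalised count (signal), a log2 fold change with SE, a test score, a p-value and an adjusted p, in DESeq2's layout. For each listed bin the authors deposited raw counts per embryo, a fitted usage score, a log2 usage ratio (sign turned here) and p-values. The tables hold changed items only, so no model was refitted, and the depth of each library is unknown. Embryos are separate animals.

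The gene headers name no direction. The deposited fold had a Spearman correlation with the ratio of mean raw bin counts (pseudocount 0.5, MO-injected over uninjected) of 0.745 at stage 10 (11 genes) and 0.699 at stage 15 (169 genes), so positive is read as higher in MO-injected embryos. Columns of the stage 15 bin table are named for stage 10 and were used as stage 15, as its fitted columns and 4 uninjected columns require. Numbers of tests come from the Benjamini-Hochberg relation: each of the last rows at stage 10 gives 13317, and stage 15 gives at least about 15849. Both steps were tested on simulated data. For the direction step, the simulated bins rose or fell at random, whereas the listed bins were all selected as raised, so that selection was not covered. Intervals of 95% assume a normal error with the deposited SE. Symbols came from RefSeq (UCB_Xtro_10.0; 235 of 292 and 1328 of 2094 identifiers matched), and sequences are not used here. The 4 genes and the 10 gene lists were chosen with earlier results of these data known. Named are the 4 genes, the listed genes of the lists, and the 3 genes nearest to each of the 4, of which some are not reported here; values of the listed stage 15 bins of myt1, pax3 and pax8 are left out. Alternatives were other limits on adjusted p, fold and mean count, matching by synonym, another pseudocount and single embryos left out. Tools were Python 3.11.15, scipy 1.17.1, pandas 2.3.3 and matplotlib 3.10.9.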

Additional observations from a re-analysis of the deposited data

Results flagged for a closer look

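One value stood far from the others of its group among the 7 sets of 4 uninjected stage 15 counts that were examined in bins of the surface lists. In a bin of the ciliary gene spag17, 1 uninjected embryo had 6 raw reads, where the other 3 had 1, 0 and 1. With normally spread values, about 1 in 20 such groups would hold a value this far out by chance. Read counts this low do not have such a spread, so the rate here is not known. The 3 MO-injected embryos had 2, 4 and 8 reads, so the groups overlapped.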

How the results depend on the processing

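Of 117 values recomputed under the alternatives, none reversed in direction, but many could not. Counts and ranks have no direction, and the deposited fold changes stay the same under any limit. The bins were listed for a higher share in MO-injected embryos from the same counts. The call of tp63 (log2 fold change -1.01) was lost at an adjusted p under 0.05 and under 0.01, whereas foxi1, dlx3 and agr2 kept theirs at both. A 2-fold limit at stage 10 kept all 4 genes. Of the 6 surface lists, the higher genes at stage 10 went from 2 to 1 at an adjusted p under 0.01 and with the 2-fold limit. At stage 15 an adjusted p under 0.01 left 2 of 4 higher and 5 of 8 lower genes; the alternative itself calls fewer genes. Matching by synonym and requiring a mean normalised count of 10 changed no such count by over 1.5 times. The log2 ratio of counts in the thin spag17 bin of 264 bases ranged from 0.485 to 2.15 when single embryos were left out, and was 2.15 without the uninjected embryo of 6 reads. Without the MO-injected embryo with the most reads, the log2 ratio fell to 0.485 from 1.05 in that bin, to 0.585 from 1.32 in the other spag17 bin, to 2.0 from 3.70 for tekt2 and to 0.94 from 1.44 for slc4a1. Leaving out single embryos moved the correlation that sets the direction between 0.673 and 0.845 at stage 10 and between 0.674 and 0.709 at stage 15. With only bins of a mean raw count of at least 10, it was 0.679 at stage 10 (7 genes) and 0.687 at stage 15 (60 genes). No embryo could be left out of the fold changes of foxi1, tp63, dlx3 and agr2. No paired analysis was possible because the columns carry no embryo names and the tables no gene values per embryo. Few reads limit the bins of the lists, where no uninjected embryo had more than 20.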
